A study of Mus musculus with 16 samples.

Results

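The genes described here encode the proteins of the cytosolic ribosome. They were chosen by symbol, as probe sets that name 1 gene whose symbol is Rpl or Rps followed by a number, the P-stalk genes Rplp0 to Rplp2 and Rpsa, leaving out the S6 kinases, Rps19bp1 and pseudogenes. This gave 49 genes of the 18193 that were measured, 26 of the large subunit and 23 of the small subunit, counted by symbol. They are read by 105 probe sets, and 24 genes have more than 1, of which the brightest was used. Of the 105, 43 carry an x or s suffix, which marks probes that may also read other transcripts. Such a probe set was used for 15 members, among them Rpl37, Rpl38 and Rps29, and 5 members have no other kind. A further 110 probe sets name a ribosomal protein gene together with other genes and are given only in sum, so several well-known members are not analysed here.

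Messenger RNA was read on 16 one-colour arrays from dendritic cells that had been cultured for 8 days out of wild type C57BL/6 bone marrow, with GM-CSF at 15 ng/ml. The cells then met Lactobacillus acidophilus NCFM, a probiotic strain, at 10 µg/ml for 4, 10 or 18 h. Control cells without bacteria were taken at the same times, and the medium of all groups held GM-CSF at 10 ng/ml. Each NCFM time point has 3 arrays. The controls have 3 arrays for 4 h and 2 for each later time. Whether the arrays of a group stand for separate mice or separate dishes is not in the labels, and the p-values therefore cover the spread among these arrays, which may be technical. The cells are a bone marrow culture, and of the dendritic cell markers Cd74 had a mean intensity of 21760, H2-Aa of 16773 and Itgax of 3275, while Flt3 had 353. Over the arrays the listed dendritic cell markers summed to 70909 to 95014, and the listed macrophage markers to 49509 to 81716.

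Each ribosome joins a small subunit, which reads the messenger RNA, to a large subunit, which forms the peptide bond. Its proteins are needed in matched amounts, and their genes are among the most strongly transcribed of a growing cell. Their messenger RNAs begin with a run of pyrimidines, the terminal oligopyrimidine (TOP) tract, through which mTOR signalling controls how well they are translated. Dendritic cells that sense bacteria are known to change from taking up antigen to presenting it, with large shifts in protein synthesis.

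The stretch around the start of transcription is shown for 6 genes, from 40 bases before the start to 25 bases from it on, because each of them holds a pyrimidine run there. The capitals mark the longest pyrimidine run near the annotated start. In Rpl4 this run lies wholly before that start. The first 3 genes were lower in NCFM cells at 18 h, and the other 3 were low on a single NCFM 4 h array described below. Sequences and positions are from RefSeq on GRCm38.p6, at chr9:64173347-64173411 on the plus strand for Rpl4, chr4:86857343-86857407 on the minus strand for Rps6, chr2:26910767-26910831 on the plus strand for Rpl7a, chr2:39005107-39005171 on the minus strand for Rpl35, chr11:114668540-114668604 on the plus strand for Rpl38 and chr7:141447611-141447675 on the plus strand for Rplp2.
Rpl4: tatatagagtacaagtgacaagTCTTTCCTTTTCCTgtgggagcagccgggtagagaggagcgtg
Rps6: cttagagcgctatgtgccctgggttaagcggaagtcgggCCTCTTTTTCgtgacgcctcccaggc
Rpl7a: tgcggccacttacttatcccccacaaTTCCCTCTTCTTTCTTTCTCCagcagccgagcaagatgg
Rpl35: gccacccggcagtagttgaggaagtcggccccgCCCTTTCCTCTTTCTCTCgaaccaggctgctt
Rpl38: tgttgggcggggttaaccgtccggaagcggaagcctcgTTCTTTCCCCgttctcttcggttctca
Rplp2: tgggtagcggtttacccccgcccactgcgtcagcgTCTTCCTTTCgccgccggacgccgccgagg

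Not every member holds such a run around its annotated start. The longest was of 3 pyrimidines in Rpl7l1, 4 in Rps4x, 5 in Rps3a1 and Rpsa and 6 in Rpl6, all of which were lower in NCFM cells at 18 h. Runs as short were also the longest in members not called at 18 h, with 3 in Rpl41 and 5 in Rpl37a, Rps16 and Rps28. A link between run length and change was not tested. A run of at least 8 pyrimidines was counted if any part of it lay within 20 bases of the start. Such a run was found in 47.1% of the 51 promoters of the 43 members in the RefSeq table, against 21% of all 32851 promoters. CTTCCG, searched on both strands in the 300 bases of each promoter, was in 60.8% of the members' promoters and 16.9% of all. GGGCGG was in 52.9% and 35.7%, and the E-box CACGTG in 9.8% and 7.15%. These run lengths and shares are descriptions of the letters around the annotated starts. They neither show nor exclude a TOP tract in the messenger RNA.

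Of the 49 members, 33 were above percentile 99 of all genes in mean intensity and 37 above percentile 90. Rps29 (mean 19118), Rps28 (17358), Rpl41 (17107), Rplp0 (17052) and Rplp2 (16944), a pair of stalk proteins among them, were the brightest. The dimmest were Rpl3l (85), a muscle paralogue of Rpl3, Rps16 (102), Rpl39l (179), a testis paralogue of Rpl39, Rpl12 (211) and Rps4l (230). Intensity depends on the probe set, so these values do not rank the messenger RNAs.

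Many of the members were low on the third NCFM 4 h array, and a few on the first control 18 h array. On the third NCFM 4 h array, 23 of 49 members were at least 2-fold lower than the mean of the other two arrays of the group, against 1.80% of all genes. Rpl38, a small protein of the large subunit, had 16006, 17191 and 3766 on the NCFM 4 h arrays, against 17397, 18449 and 19492 on the control 4 h arrays. Rpl37 had 2838, 3327 and 572 in NCFM cells and 3578, 3874 and 4044 in control cells. In both, the third NCFM array alone was far below the rest. In 16 members that array was within 0.25 log2 units of its partners, and Rpl4 had 13860, 12380 and 15291 on the NCFM 4 h arrays, against 14185, 14018 and 15416 in control cells. Genes outside the family were low on the same array. The median log2 intensity of the oxidative phosphorylation subunits was 10.15 there, against 11.55 and 11.45 on its partners, and that of the mitochondrial ribosomal protein genes 9.01, against 9.68 and 9.65.

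The first of the 2 control 18 h arrays was low for some of the same genes. Rpl38 had 13387, 13317 and 12325 in NCFM cells at 18 h, against 9591 and 18876 in control cells, so that the groups overlap through 1 control array. Rpl37 had 2056, 1844 and 1544 in NCFM cells and 1355 and 4368 in control cells. On this array 5 of 49 members were at least 0.5 log2 units lower than on its partner, a share near the 9.17% of all genes. All 5 are among the 23. The median deviation of members there was -0.13, against 0 over all genes. Over the 37 members above percentile 90 the deviations on both arrays had a Pearson r of 0.78 and a Spearman rho of 0.83, as a description over genes that share arrays. On the third NCFM 4 h array the summed intensity of 8 neutrophil markers was also low, at 7888, against 31615 and 35872 on its partners. S100a8 had 1595 there, against 12078 and 12288. The macrophage markers summed to 81716 there, against 54156 and 67457, and the dendritic cell markers to 95014, against 87540 and 82901. The part of these differences in the result was not tested. The 3′ to 5′ intensity ratio of Gapdh was 0.92 there, and 0.90 to 1.06 over all arrays. That of Actb was 1.07 on the third NCFM 4 h array, against 1.18 and 1.26 on its partners. On the first control 18 h array it was 1.06, against 1.55 on the second, and 1.06 to 1.55 was the range over all arrays. The first NCFM 18 h array also had 1.07, with the highest member median of its group (13.24 in log2 units). The part of the Actb ratio in the result was not tested. Without the first control 18 h array a single control array is left at that time. A test at 18 h without it takes its spread from the other groups and assumes that the lone array varies as they do.

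**Figure D1:**
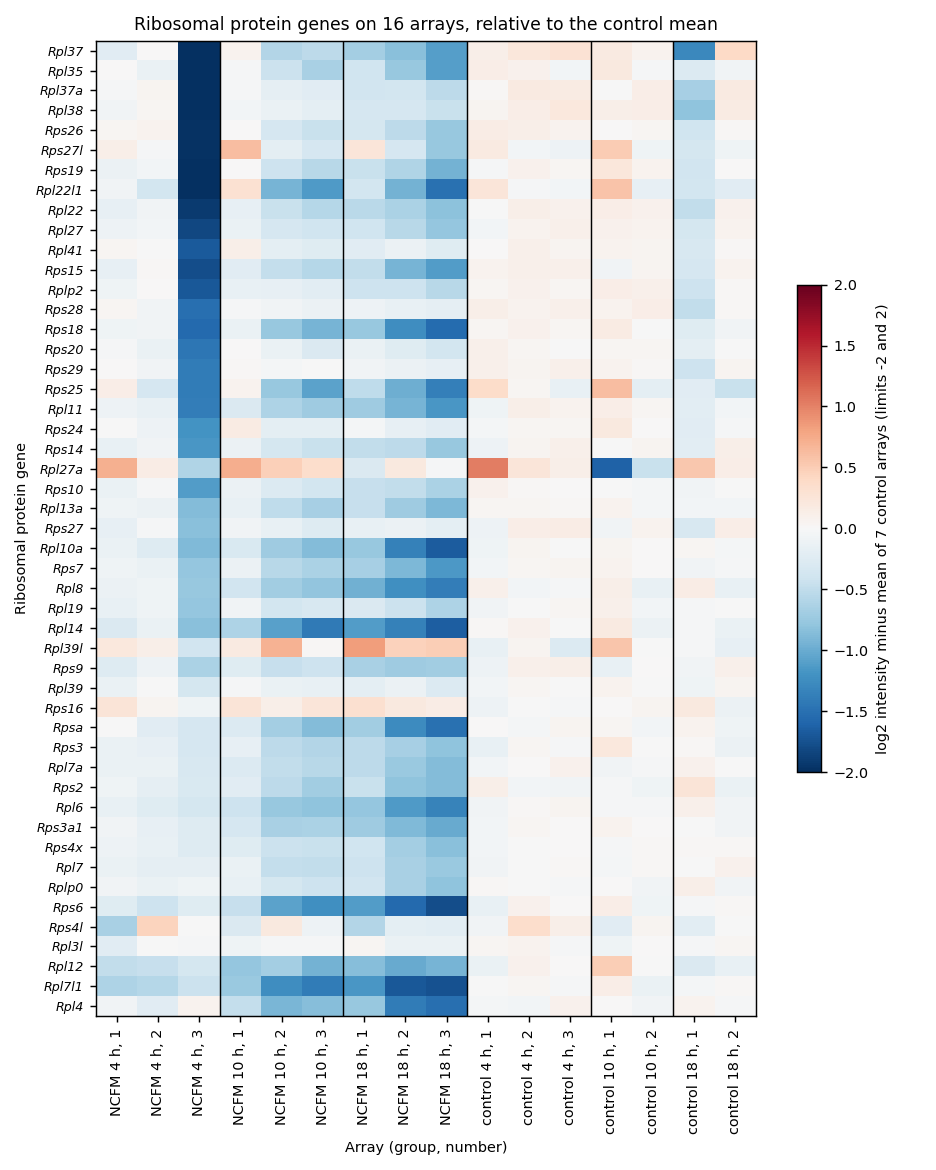
Each row is 1 of the 49 ribosomal protein genes and each column 1 of the 16 arrays, with colour for the log2 intensity minus the mean of the 7 control arrays. Rows are ordered by the deviation of the third NCFM 4 h array, which is darkest in the upper 23 rows, while the NCFM 10 h and 18 h arrays are blue in most rows.

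**Figure D2:**
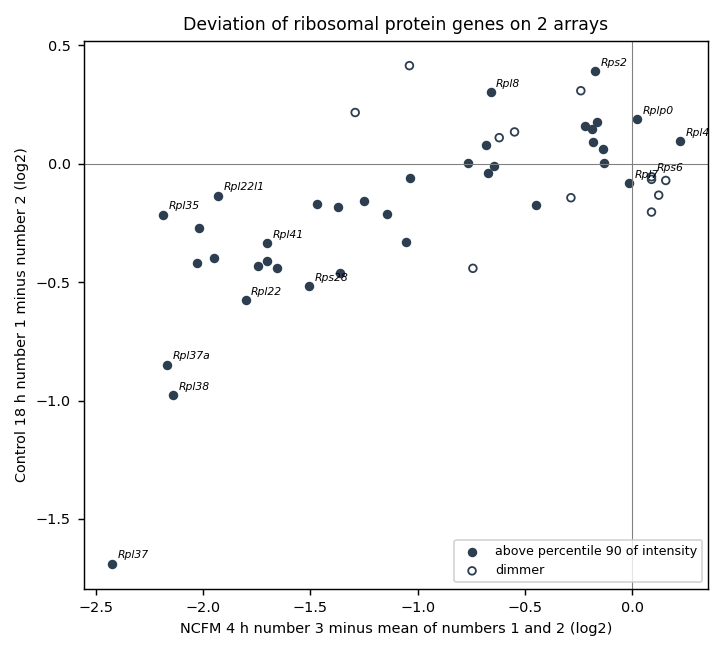
Each point is a ribosomal protein gene, with the deviation of the third NCFM 4 h array on the x axis and that of the first control 18 h array on the y axis, both in log2 units. Rpl37, Rpl38 and Rpl37a are lowest on the y axis and below -2 on the x axis, and Rpl4 and Rplp0 are above 0 on both.

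At 4 h only a pair of members passed the test in limma, both lower in NCFM cells, and none rose. Of all genes 13.1% were called lower and 5.27% higher. Rpl7l1, a relative of Rpl7 that acts in ribosome assembly in other species, had 958, 987 and 1084 in NCFM cells, against 1462, 1508 and 1443 in control cells (-0.54 ± 0.17 SE on the log2 scale, adjusted p = 0.0427 in limma). Rpl12, a protein at the base of the stalk, had 199, 203 and 219 in NCFM cells, against 253, 296 and 280 in control cells (-0.41 ± 0.11, adjusted p = 0.0252 in limma). In both, all NCFM arrays were below all control arrays. The call of Rpl7l1 held in 15 of 27 alternatives and was lost without the third NCFM 4 h array. That of Rpl12 held in 21 of 26. The other probe sets of Rpl7l1, of mean intensity 742 and 268, changed by -0.25 and -0.39, and only the dimmer was called. The median change of the members was -0.41, against -0.01 over all genes, and -0.13 without the third NCFM 4 h array, when 1 member and 10.6% of all genes were called lower, and 1 member and 12.3% without the first control 18 h array as well. In 31 members every NCFM array was below every control array, as in 22.7% of all genes, and in 32 and 28.2% without the third NCFM 4 h array. With the array number as a block 7 members were called, all lower, against 19.3% of all genes.

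At 10 h 13 members fell and 1 rose, against 16.5% of all genes called lower and 8.21% called higher. The median change was -0.37 for members and 0.01 for all genes, and -0.24 for members with the array number as a block. Rpl7l1 fell by 1.13, Rpl14, a large subunit protein, by 1.06, and Rpl12 by 1.04 on the log2 scale. Rpl14 and Rpl12 are dim for the family, with mean intensities of 238 and 211 from 1 probe set each, at percentiles 49 and 44 of all genes. Rps6, the small subunit protein that the S6 kinases phosphorylate, had 748, 490 and 441 in NCFM cells, against 1132 and 977 in control cells (-0.95 ± 0.21 SE, adjusted p = 0.00632 in limma). Its mean intensity was 726, at percentile 78.5 of all genes. The other probe set of Rps6, of mean intensity 145, changed by -0.16 at 10 h and -0.23 at 18 h and was not called. Rps3a1, a small subunit protein at the messenger RNA exit, had 14939, 12092 and 12241 in NCFM cells, against 19858 and 18932 in control cells (-0.57 ± 0.10, adjusted p = 0.00158 in limma). The NCFM arrays were below the control arrays in each of these, and the same held in 36 of 49 members, against 28.9% of all genes. The other members called lower were Rpl4, Rpl6, Rpl8, Rpsa, Rps3, Rpl7a, Rps4x and Rpl7, between -0.72 and -0.36.

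The 1 member that rose at 10 h was Rpl27a, with 2035, 1713 and 1569 in NCFM cells, against 401 and 896 in control cells (1.56 ± 0.40 SE, adjusted p = 0.014 in limma). Without the first control array its adjusted p was 0.207 in limma, and the same gene had 2506, 1449 and 1333 in control cells at 4 h. Leaving out that control array left 3 of the 14 calls. The count of members called lower at 10 h was 20 without the third NCFM 4 h array, against 17.5% of all genes, and 23 without that array and the first control 18 h array, against 19.2%.

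At 18 h 19 members fell and 1 rose, against 16.3% of all genes called lower and 7.4% called higher, and all 13 that fell at 10 h were among the 19. They were 11 large subunit and 8 small subunit genes. The median change was -0.58 for members and 0.00 for all genes, and -0.36 for members with the array number as a block. In 32 members every NCFM array was below every control array, as in 26.1% of all genes. Against the second control 18 h array alone this held in 44 members and 37.7% of all genes.

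Among the large subunit genes, Rpl4 had 8604, 5483 and 5080 in NCFM cells at 18 h, against 15320 and 14343 in control cells (-1.25 ± 0.19 SE, adjusted p = 0.000637 in limma). Rpl6 had 7446, 5782 and 5023 in NCFM cells, against 13694 and 12119 in control cells (-1.10 ± 0.15, adjusted p = 0.000295 in limma). Rpl8, at the peptidyl transferase centre, had 5675, 4714 and 4233 in NCFM cells, against 12233 and 9914 in control cells (-1.19 ± 0.20, adjusted p = 0.00122 in limma). The NCFM arrays of these 3 genes were all below the control arrays, and the first NCFM array was the highest of its group. Rpl10a fell by 1.25, Rpl14 by 1.30 and Rpl7l1 by 1.53 on the log2 scale. Of these Rpl14 is dim, with a mean intensity of 238 from 1 probe set. Rplp0, the stalk protein that carries the other P proteins and a common reference gene in expression studies, had 14983, 12421 and 11138 in NCFM cells, against 21197 and 18595 in control cells (-0.64 ± 0.11, adjusted p = 0.00138 in limma).

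Among the small subunit genes, Rps6 had 478, 352 and 301 in NCFM cells at 18 h, against 1010 and 1049 in control cells (-1.48 ± 0.21 SE, adjusted p = 0.000415 in limma). Rpsa, also known as the laminin receptor, had 9698, 6603 and 5610 in NCFM cells, against 16616 and 14869 in control cells (-1.14 ± 0.20, adjusted p = 0.00169 in limma). Rps3a1 had 11579, 10218 and 9408 in NCFM cells, against 18855 and 18065 in control cells (-0.83 ± 0.10, adjusted p = 0.000142 in limma). No NCFM array reached the control range in these genes. Rps7, Rps2, Rps9, Rps4x and Rps3 fell by 0.86, 0.76, 0.70, 0.66 and 0.61 on the log2 scale. In the same groups the neutrophil markers summed to 5705 to 17127 in NCFM cells and 22930 to 25660 in control cells, with 1 of the 8 markers (Ltf) called lower. The 9 markers of cycling cells summed to 6461 to 7068 in NCFM cells, against 23793 and 7732 in control cells, with 0 called. The 5 B cell markers summed to 1001 to 1048 in NCFM cells, against 1354 and 1692 in control cells, with 1 (Ighm) called lower. The part of these differences in the result was not tested. In bulk samples fewer cells of a type and less RNA per cell cannot be told apart.

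**Figure D3:**
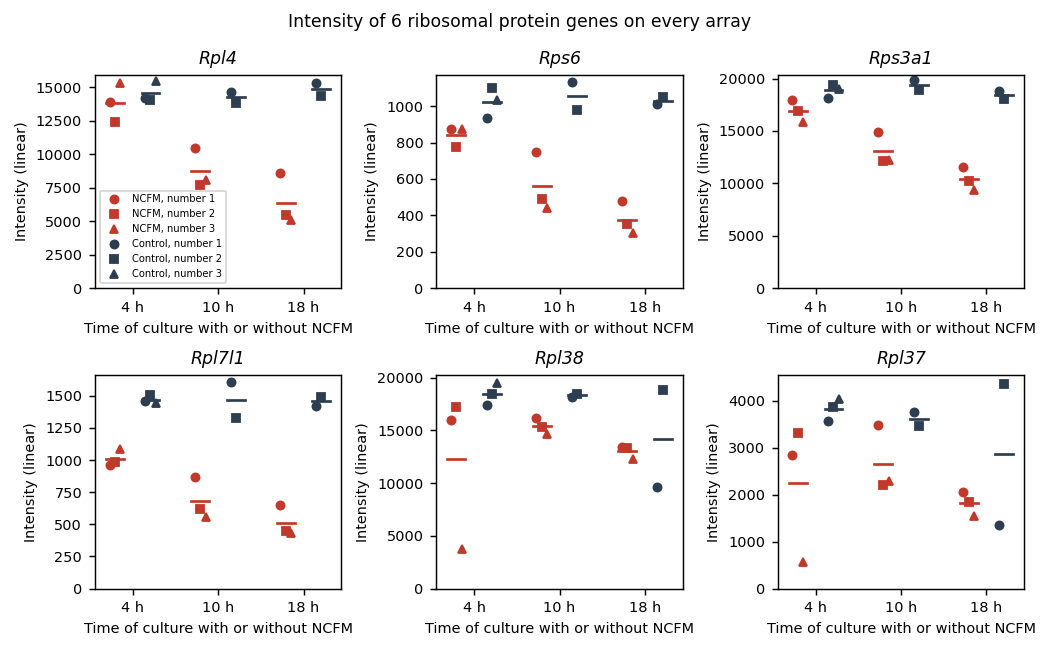
Linear intensity of 6 ribosomal protein genes on every array at 4, 10 and 18 h, with NCFM arrays in red left of control arrays in dark blue, symbols for the array number and a bar for the group mean. Rpl4, Rps6, Rps3a1 and Rpl7l1 separate at 10 and 18 h, while in Rpl38 and Rpl37 the third NCFM 4 h array and the first control 18 h array lie far below the other arrays of their own group.

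Rps29 and Rps28, which encode some of the smallest ribosomal proteins, did not pass the test at 18 h. Rps29 had 19618, 19046 and 18478 in NCFM cells, against 15566 and 21435 in control cells (0.06 ± 0.31 SE, 95% interval -0.61 to 0.73). Rps28 had 17700, 17142 and 16819 in NCFM cells, against 13541 and 19369 in control cells (0.09 ± 0.34, 95% interval -0.65 to 0.83). In both the control arrays lie on either side of the NCFM arrays. Without the first control 18 h array and the third NCFM 4 h array the changes were -0.17 and -0.17, with adjusted p of 0.0857 and 0.104 in limma, from a single control array at 18 h.

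Of the 37 members above percentile 90, 21 were at least 2-fold lower on the third NCFM 4 h array. With all arrays 0 of these were called at 18 h, and 15 of the other 16 were called lower. This division uses the deviation of an array whose spread also enters the test, so the counts are a description. Without the first control 18 h array 0 of the 21 and 14 of the 16 were called lower, and without both arrays 13 of the 21 and 15 of the 16. The median change at 18 h was -0.60 in the 21 and -0.74 in the 16 without the first control 18 h array, whether or not the third NCFM 4 h array was kept, against -0.43 and -0.75 with all arrays.

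Over all 49 members, 26 were called lower at 18 h without the third NCFM 4 h array, against 17.1% of all genes, and 18 without the first control 18 h array, against 15.1%. Without both arrays 32 were, against 16.5%, and 18 of the 19 above were among the 32. The exception was Rps2, with an adjusted p of 0.0505 in limma. Without both arrays, and so against 1 control array, Rpl37 changed by -1.28 ± 0.23 SE, against -0.43 ± 0.63 with all, and Rpl38 by -0.54 ± 0.09, against -0.05 ± 0.50. The control spread at 18 h does not enter these errors.

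**Figure D4:**
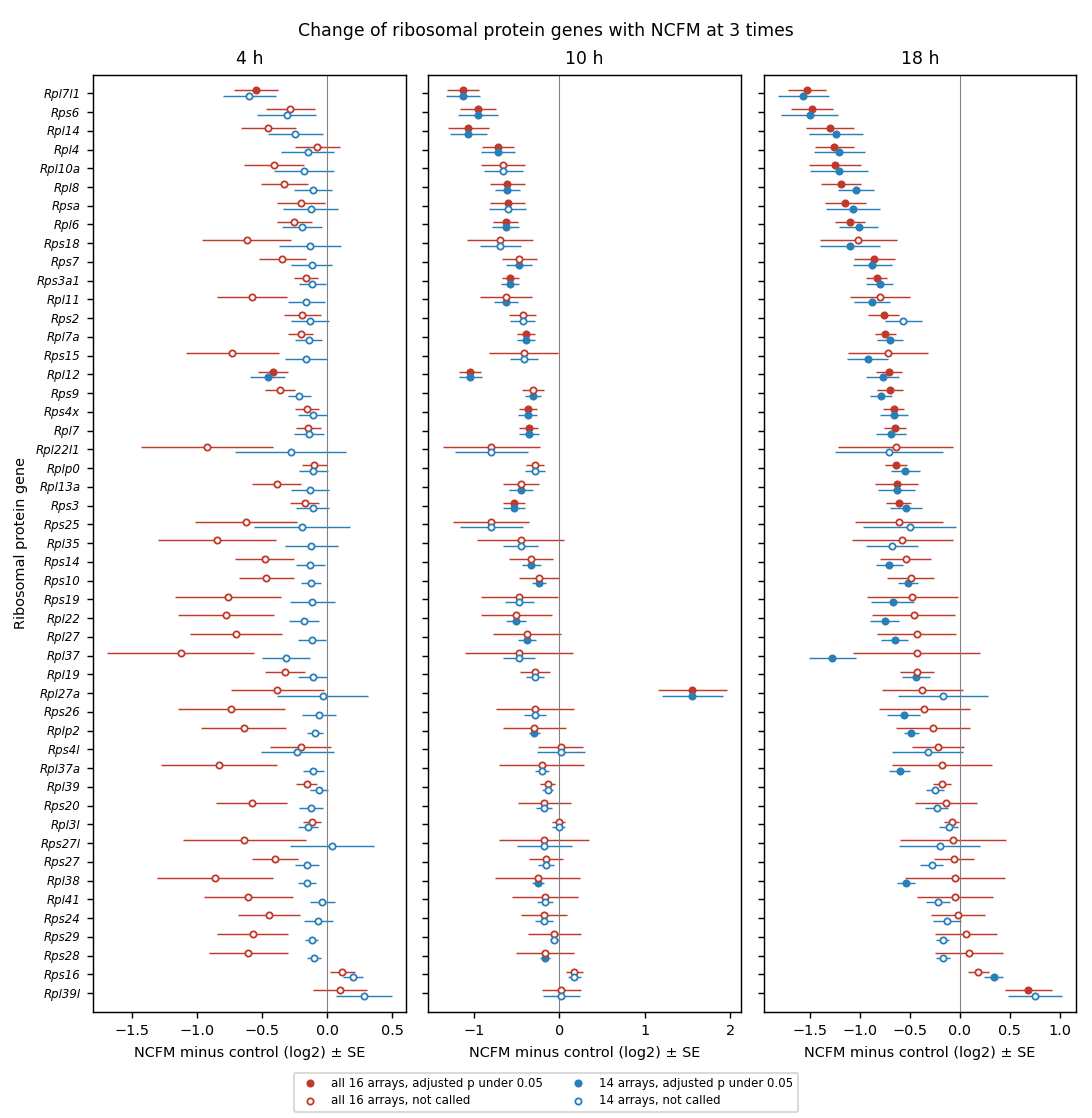
Change of each ribosomal protein gene, NCFM minus control in log2 units with its SE, at 4, 10 and 18 h, from all 16 arrays (red) and from the 14 left without the third NCFM 4 h and first control 18 h arrays (blue); filled points have an adjusted p under 0.05, and the x axes differ between panels. Genes run from the largest fall at 18 h (Rpl7l1) at the top to the rise of Rpl39l at the bottom, and many of the error bars toward the bottom shorten without the 2 arrays.

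The paralogues are given beside their parent genes, with no test of the difference. Rpl39l had 284, 219 and 225 in NCFM cells at 18 h, against 157 and 143 in control cells (0.69 ± 0.23 SE, adjusted p = 0.0492 in limma), and 11 of 26 alternatives kept the call. Its parent Rpl39 changed by -0.18 ± 0.09 and was not called. Rpl7l1 fell by 1.53 and its parent Rpl7 by 0.65 on the log2 scale. The other probe sets of Rpl7l1, of mean intensity 742 and 268, fell by 0.61 and 0.83, so the size of its change depends on the probe set. Rpl22l1 (-0.64 ± 0.57), Rps27l (-0.07 ± 0.53), Rps4l (-0.22 ± 0.26) and Rpl3l (-0.08 ± 0.07) did not pass the test, nor did Rpl22 (-0.46 ± 0.42) and Rps27 (-0.06 ± 0.20), while Rps4x, the parent of Rps4l, fell by 0.66. A dimmer probe set of Rpl22, of mean intensity 682, was called lower (-1.58 ± 0.21, adjusted p = 0.000257 in limma), unlike its brightest.

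Members with known roles outside the ribosome did not all pass. Rps3, which also acts in DNA repair and binds NF-kappaB, fell by 0.61 at 18 h in its brightest probe set. Its other probe sets disagreed, since the one of mean intensity 432 had 271, 240 and 214 in NCFM cells, against 777 and 753 in control cells (-1.67 ± 0.18 SE), and the one of mean intensity 258 had 300, 298 and 281 in NCFM cells, against 264 and 234 in control cells (0.24 ± 0.07). Both were called, in opposite directions. Rpl13a, part of an interferon-gamma-activated inhibitor of translation in human cells, fell by 0.63 (adjusted p = 0.0483 in limma), a call that 13 of 27 alternatives kept. Rpl11, which binds Mdm2, changed by -0.80 ± 0.30 and Rps19, mutated in Diamond-Blackfan anaemia, by -0.48 ± 0.45, and neither passed with all arrays. Rpl11 had 6825, 5876 and 4956 in NCFM cells, against 9638 and 10743 in control cells. Rps19 had 9382, 8415 and 6604, against 9754 and 12834. In both genes every NCFM array was below every control array. Rpl11 was called lower at 18 h without the third NCFM 4 h array.

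The effect of NCFM differed between 18 h and 4 h in 4 members, all lower at 18 h, against 2.22% of all genes called lower. They were Rps6 (-1.19 ± 0.28 SE), Rpl4 (-1.18 ± 0.26), Rpl6 (-0.85 ± 0.20) and Rps3a1 (-0.67 ± 0.14). Without the third NCFM 4 h array 2 members were called lower (1.59% of all genes), without both arrays 0 (1.4%), and with the array number as a block 11 (5.93%). The 10 h effect minus the 4 h effect called 0 members in limma, where 6 had an unadjusted p under 0.05 and 0.506% of all genes were called. The 18 h effect minus the 10 h effect called 0, with 4 such members and 0.0055% of all genes. Between times within NCFM cells, Rpl4 (-0.67) and Rps3a1 (-0.37) fell at 10 h relative to 4 h, against 3.88% of all genes, and 0 fell at 18 h relative to 10 h, where 14 had an unadjusted p under 0.05 and 1.18% of all genes were called lower. The block called 7 and 6 members lower, against 7.65% and 3.41% of all genes. Within control cells 0 members were called at either step in limma, as were 0 (0%) of all genes, and 1 and 2 members had an unadjusted p under 0.05.

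Array numbers moved with the members in NCFM cells. The first NCFM array was above the mean of its partners in 45, 46 and 46 of 49 members at 4, 10 and 18 h, against 15, 33 and 17 in control cells. Its median difference from them was 0.41, 0.34 and 0.28 over members and -0.007, 0.0001 and -0.003 over all genes. Compared within a number, the median change of members at 18 h was -0.28 for number 1 and -0.63 for number 2. There 35 and 46 of 49 members were lower, against 51% and 49.5% of all genes. At 10 h the median change was -0.20 and -0.45, with 43 and 45 members lower, against 48.4% and 50.7% of all genes. At 4 h it was -0.09, -0.14 and -0.87 for numbers 1, 2 and 3. There 44, 45 and 48 members were lower, against 56.1%, 51.3% and 51% of all genes. Rpl4 changed by -0.83 and -1.39 at 18 h within numbers 1 and 2.

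Genes around the ribosome are counted here against 13.1%, 16.5% and 16.3% of all genes called lower and 5.27%, 8.21% and 7.4% called higher at 4, 10 and 18 h. Of 33 translation factor and TOP messenger RNA genes, 1 rose and 1 fell at 4 h, 16 fell at 10 h and 21 at 18 h, with a median change of -0.80 at 18 h. Eef2, the elongation factor that moves the ribosome along, fell by 1.59 and Eif3l, a subunit of the initiation factor eIF3, by 1.74. Of 52 ribosome biogenesis factors 5 fell and 3 rose at 4 h, 35 fell and 2 rose at 10 h, and 39 fell and 1 rose at 18 h. Fbl, the methyltransferase of box C/D particles, fell by 2.27, Tsr1 by 2.39, and nucleolin (Ncl) and nucleophosmin (Npm1) by 1.48 and 1.46 at 18 h. Sbds, which releases eIF6 from the large subunit, rose by 1.06 at 4 h. Of 12 RNA polymerase I genes 3, 5 and 5 fell at 4, 10 and 18 h, among them Rrn3 (-0.77 at 18 h).

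Of 32 genes of mTOR signalling and translation control, 6 rose and 11 fell at 4 h, 5 rose and 15 fell at 10 h, and 5 rose and 8 fell at 18 h. Mxd1, a Myc antagonist, rose by 2.59 at 18 h, Ddit4, an inhibitor of mTOR complex 1, by 1.77, and Sesn1 fell by 1.58. Myc changed by -1.32 ± 0.48 SE at 18 h and was not called. For comparison, 31 of 76 mitochondrial ribosomal protein genes fell at 10 h and 31 at 18 h, with median changes of -0.60 and -0.56. At 4 h 27 fell, with a median of -0.55. Without the third NCFM 4 h array 14, 48 and 44 of them fell at 4, 10 and 18 h, and the median at 4 h was -0.33. The probe sets that name several genes, ribosomal proteins among them, had median changes of -0.53, -0.37 and -0.50 at 4, 10 and 18 h, and 4, 16 and 35 of the 110 were called lower, against 8.42%, 11.6% and 11.3% of all 45037 probe sets fitted. Without the third NCFM 4 h array 4, 31 and 69 were, against 6.49%, 12.4% and 12%, and the median at 4 h was -0.14.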

How the data were processed

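The deposited table holds linear intensity values of 45101 probe sets on 16 arrays, from 42 to 31573, as the authors deposited them. How they were summarised and normalised was not given in the labels or the file. Intensities were taken to log2, the probe set of highest mean was kept for each gene, and 18193 genes were fitted with 1 mean per group (lmFit and eBayes of limma 3.58.1, R 4.3.3). Two-sided p-values had a Benjamini-Hochberg adjustment across the 18193 genes, with calls under 0.05. Further probe sets of a gene were called in a separate fit of the 34945 probe sets that name 1 gene, adjusted across these. There the brightest probe sets of Rpl39l and Rpl13a were not called at 18 h, with adjusted p of 0.0539 and 0.0529 in limma. Probe sets that name several genes were called in a fit of 45037 probe sets. Figures used Python 3.11.15 and matplotlib 3.10.9. The code was tested on simulated data.

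The members, gene lists and naming rule (the largest changes, the brightest and dimmest members, paralogues, members with roles outside the ribosome, and called genes of the lists) were chosen with earlier results of these data known. Leaving out both deviating arrays together and the split at percentile 90 were chosen after seeing the data. The labels give only array numbers. Deviations from group means correlated at 0.19 to 0.75 in all 36 same-number pairs, so the numbers may pair the samples. The main fit, with its changes, errors and calls, did not use this pairing, and the block was an alternative. At the later times some NCFM arrays have no control array of the same number. The median change of members at 18 h was -0.58 in the main fit and -0.36 with the block. Each called 19 members lower, against 16.3% and 21.3% of all genes. Lists were described by counts, with no test over a list. The number of arrays limits the precision. Promoters were read from RefSeq (GRCm38.p6), where 43 of 49 members matched.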

Additional observations from a re-analysis of the deposited data

Results flagged for a closer look

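For 4 ribosomal protein genes the NCFM effect differed between 18 h and 4 h by the test of the difference itself in limma. The effect at 18 h minus that at 4 h was -0.67 ± 0.14 SE for Rps3a1 (adjusted p = 0.0197), -1.18 ± 0.26 for Rpl4 (adjusted p = 0.028), -0.85 ± 0.20 for Rpl6 (adjusted p = 0.0397) and -1.19 ± 0.28 for Rps6 (adjusted p = 0.0411). Without the third NCFM 4 h array the values were -0.72, -1.11, -0.91 and -1.16, with adjusted p of 0.0268, 0.0626, 0.0526 and 0.082 in limma. Without the first control 18 h array as well they were -0.69, -1.06, -0.82 and -1.19, and none of the 4 passed, with 1 control 18 h array left, assumed to vary like the other groups. No group has over 3 arrays, so no test for outlying arrays was made.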

How the results depend on the processing

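No member called with all arrays changed sign in the alternatives run, and the median change of members stayed below 0 at 4, 10 and 18 h. Members that were not called did change sign, at 18 h Rpl37, Rpl37a, Rpl38, Rpl41, Rps20, Rps24, Rps27, Rps27l, Rps28 and Rps29 in 1 to 5 alternatives each, and others at 4 h, at 10 h and for the 18 h minus 4 h effect. The median of that effect was -0.02, and 0.04 with the block, and that of NCFM cells at 10 h minus 4 h was 0.06, and -0.24 without the third NCFM 4 h array. With the replicate block 7 members were called at 4 h, 11 for the 18 h minus 4 h effect, and 7 and 6 for NCFM cells at 10 h minus 4 h and 18 h minus 10 h, and with the block but without the third NCFM 4 h array 23 were called at 10 h and 9 for NCFM cells at 18 h minus 10 h; the block moved no other count by over 1.5 times. At 4 h, quantile normalization called 1, the mean of probe sets 4, background subtraction 1, spike-in centring 0 and array weights 5. For the 18 h minus 4 h effect background subtraction called 2 and array weights 12. For NCFM cells at 10 h minus 4 h, quantile normalization called 4, background subtraction 1, spike-in centring 14, array weights 15 and only the groups compared 0, and at 18 h minus 10 h the mean of probe sets and leaving out x and s suffix probe sets called 1 each and array weights 14. Spike-in centring called 15 for the 10 h minus 4 h effect, 14 of them lower. It moved the median of all genes to 0.19 at 4 h, -0.24 at 10 h and 0.01 at 18 h, and that of members to -0.22, -0.63 and -0.57. The median of all genes thus also went down from 4 h to 10 h, and these calls cannot be read as particular to the members. The counts of this paragraph stand without the share of all genes and describe only how the calls depend on the setting. Without both deviating arrays 1, 24 and 33 members were called at 4, 10 and 18 h, 0 for the 18 h minus 4 h effect, and 0 and 2 within NCFM cells, with 1 control array left at 18 h, whose spread comes from the other groups. Leaving out 1 array at a time gave 0 to 2 calls at 4 h, 3 to 21 at 10 h, 17 to 27 at 18 h, 0 to 1 for the 10 h minus 4 h effect, 0 to 10 for the 18 h minus 4 h effect, and 0 to 7 and 0 to 8 within NCFM cells. The cause was not tested. At 10 h the first control array gave the 3, and leaving out the second control array, the NCFM array numbered 2 or the NCFM array numbered 3 gave 8 each. At 4 h leaving out the first NCFM 4 h array or the control 4 h array numbered 2 or 3 gave 0. For the 18 h minus 4 h effect, leaving out the first NCFM 18 h array gave 10, the first NCFM 10 h array 7, and the second NCFM 18 h array or the first control 18 h array 0, and each of the other arrays that moved the count gave 1 or 2. Within NCFM cells, leaving out the first NCFM 10 h array gave 7 at 10 h minus 4 h, and the first NCFM 18 h array gave 5 there and 8 at 18 h minus 10 h.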
